A study of Mus musculus with 128 samples.

Results

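The comparison set hepatocytes of Pard3HMKO mice against those of Pard3WT mice on day 2 after partial hepatectomy, at the age of P60. Its members were found by library label: 2 Pard3HMKO libraries and 2 Pard3WT libraries, 4 of the 128 samples of the series, holding 198 of its 4264 cells. The Pard3HMKO libraries are labelled as C57BL/6 mice with the Pard3-fl/fl genotype that had received AAV-Tbg-Cre, with "7d" beside the injection and no statement of what the days count from, and then the hepatectomy. The Pard3WT libraries carry the same strain, genotype, age and day, and their treatment label reads control, with no injection named. The sample titles of both groups carry TbgCre, so whether the Pard3WT mice received a vector is not clear from the labels, and an effect of the virus and an effect of the deletion cannot be told apart. Tbg is the promoter of thyroxine-binding globulin, which is active in hepatocytes, so the recombinase was driven in that cell type. The series text gives the resection as 70% of the liver, and libraries of the same 2 groups on day 0 (2 of each) and day 7 (6 Pard3HMKO and 4 Pard3WT) serve as comparison. The isolation of the adult cells is not described in the labels, and no label says that libraries came from separate animals, so p-values measure the spread between libraries, which may be technical.

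Pard3 encodes PAR3, a scaffold that works with PAR6 and atypical protein kinase C to set up cell polarity and to place tight junctions. A hepatocyte is a polarised cell: bile salts and lipids leave through an apical canaliculus sealed by tight junctions, while plasma proteins leave through the basolateral side. After partial hepatectomy the remaining hepatocytes secrete acute phase proteins, turn down part of their metabolic programme and re-enter the cell cycle.

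The Pard3HMKO libraries held 53 and 62 cells with 65796008 and 86188713 reads, and the Pard3WT libraries 7 and 76 cells with 5735612 and 71134473 reads. All 15 hepatocyte markers had reads in each of the 4 libraries, at a sum of 112767 and 112522 unscaled CPM (counts divided by library size, with no scaling factor) in Pard3HMKO and 122293 and 132455 in Pard3WT. Pard3WT replicate 1, the library of 7 cells, stood apart: its erythroid markers, mostly globins such as Hbb-bs, summed to 5084.55 unscaled CPM, against 7.55, 9.63 and 7.63 in the other libraries of that day, and on the first principal component of all adult libraries it lay at 97.8, beyond 69.1 and 71.5 in Pard3HMKO and 63.9 in Pard3WT replicate 2. Of the other marker lists, that of cholangiocytes summed to 94.8 and 156 unscaled CPM in Pard3HMKO, against 552 and 1942 in Pard3WT. Most of it came from Spp1, which averaged 87.4 CPM in Pard3HMKO and 1148 CPM in Pard3WT, while Krt19 reached at most 0.267 CPM and Epcam at most 1.29 CPM, both in Pard3WT replicate 2. Neutrophil markers summed to 14.2 and 6.58 unscaled CPM in Pard3HMKO, against 40.6 and 99.9 in Pard3WT. The lists of macrophages, endothelial and stellate cells lay between 8.19 and 55.6 unscaled CPM in the 4 libraries, and that of lymphocytes between 0 and 2.92. edgeR called none of the 78 tested markers of these 7 other cell types; 14 had p below 0.05 before adjustment, while DESeq2 called 7, 5 of them erythroid. Results below are differences of summed reads, so fewer cells with a transcript and less of it per cell cannot be told apart unless shares of cells are given.

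Pard3 itself had 23.7 and 21.9 CPM (from here on, and for Spp1, Krt19 and Epcam above, with library sizes scaled by TMM factors) in Pard3HMKO, against 15.3 and 22.1 CPM in Pard3WT. The groups overlapped, and the log2 fold change was 0.27 ± 0.23 (SE; edgeR adjusted p = 0.708). Reads were counted over the whole gene and no source used here names the deleted exons, so this value neither checks the labels nor measures the loss.

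Of 15391 genes tested, 493 differed at an adjusted p below 0.05 (3.2%), 307 of them higher in Pard3HMKO (1.99%) and 186 lower (1.21%). The median log2 fold change over all genes was 0.08. The libraries of the groups did not overlap for 41.0% of genes. The split of calls moved with the scaling. The TMM factors were 0.764 and 0.714 in Pard3HMKO and 1.02 and 0.999 in Pard3WT. With library size as the only scaling the median fell to -0.35, and 106 genes were higher and 756 lower. Directions below are therefore relative to the bulk of genes under TMM. Leaving out 1 library gave 242 genes without Pard3HMKO replicate 1, 207 without Pard3HMKO replicate 2, 253 without Pard3WT replicate 1 and 1367 without Pard3WT replicate 2, the last of which leaves the 7-cell library as the only control.

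Rises and falls here are differences between the groups on day 2, not changes over days. Among the 12 largest rises were a pair of secreted antimicrobial lectins, a pair of bile acid enzymes and several genes best known from other tissues. Some were present before hepatectomy. On day 0 Cyp8b1 averaged 141 CPM in Pard3HMKO and 156 CPM in Pard3WT, and Cyp7b1 280 and 279 CPM. Csrp3 averaged 43.9 and 50.4 CPM on that day, and Zap70 21.3 and 29.1 CPM. The other largest rises averaged at most 2.86 CPM in either group on day 0. Reg3g, which encodes a lectin that binds bacterial cell walls, had 141 and 296 CPM in Pard3HMKO, against 0 and 0.915 CPM in Pard3WT, a log2 fold change of 8.23 ± 0.75 (SE; adjusted p = 1.49e-05). Its paralogue Reg3b had 5.11 and 92.9 CPM in Pard3HMKO, against 0 and 0.141 CPM in Pard3WT. The call of Reg3b was lost without Pard3HMKO replicate 2, without Pard3WT replicate 1 and with the day-2 libraries fitted alone. With every cell thinned to 100000 reads, Reg3g was read in 15 of 53 and 25 of 62 Pard3HMKO cells, against 0 of 7 and 5 of 74 Pard3WT cells. In Pard3HMKO replicate 1, 1 cell held 81.2% of all Reg3g reads. Reads of the paralogues may be shared between them.

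Cyp8b1, the sterol 12α-hydroxylase that sets the ratio of cholic acid to other bile acids, had 45.9 and 30.8 CPM in Pard3HMKO, against 0 and 0.436 CPM in Pard3WT (log2 fold change 6.66 ± 0.80, adjusted p = 0.000226). Cyp7b1, the oxysterol 7α-hydroxylase of the acidic bile acid pathway, had 184 and 168 CPM in Pard3HMKO, against 5.46 and 14.3 CPM in Pard3WT (4.06 ± 0.44, adjusted p = 4.15e-05). In thinned cells Cyp7b1 was read in 53 of 53 and 61 of 62 Pard3HMKO cells, against 2 of 7 and 34 of 74 Pard3WT cells.

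Tm4sf20, a membrane protein with 4 transmembrane segments, had 89.5 and 76.3 CPM in Pard3HMKO, against 1.71 and 4.72 CPM in Pard3WT (4.57 ± 0.72, adjusted p = 0.00108). Zap70, a tyrosine kinase known from T cell receptor signalling, had 30.5 and 26.4 CPM in Pard3HMKO, against 3.07 and 2.66 CPM in Pard3WT (3.34 ± 0.37, adjusted p = 1.43e-05). Pirb, an inhibitory receptor of myeloid and B cells, had 19.7 and 20.7 CPM in Pard3HMKO, against 0.852 and 0.859 CPM in Pard3WT (4.56 ± 0.77, adjusted p = 0.00131). The 16 lymphocyte markers summed to 0.471 and 2.92 unscaled CPM in Pard3HMKO, with 11 and 6 of them at 0, and to 0 and 0.408 in Pard3WT. Zap70 was read in 28 of 53 and 40 of 62 thinned Pard3HMKO cells, against 1 of 7 and 8 of 74 Pard3WT cells. Reg3g, Cyp8b1, Cyp7b1, Tm4sf20, Zap70 and Pirb kept their calls in all 12 alternative analyses. Csrp3, a muscle LIM protein, lost its call only with the 4 day-2 libraries fitted alone. Less firm were Mmd2 and Serpina3c, whose calls were lost without any one of the 4 libraries, and in 5 and 8 of 12 alternatives. A2m is the protease inhibitor α2-macroglobulin, and Dntt the terminal transferase of lymphocytes. Both lost their calls without Pard3HMKO replicate 1, Pard3HMKO replicate 2 or Pard3WT replicate 1. A2m also lost its call with DESeq2 and with library size only, and Dntt with the day-2 libraries alone and with the replicate block.

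**Figure D1:**
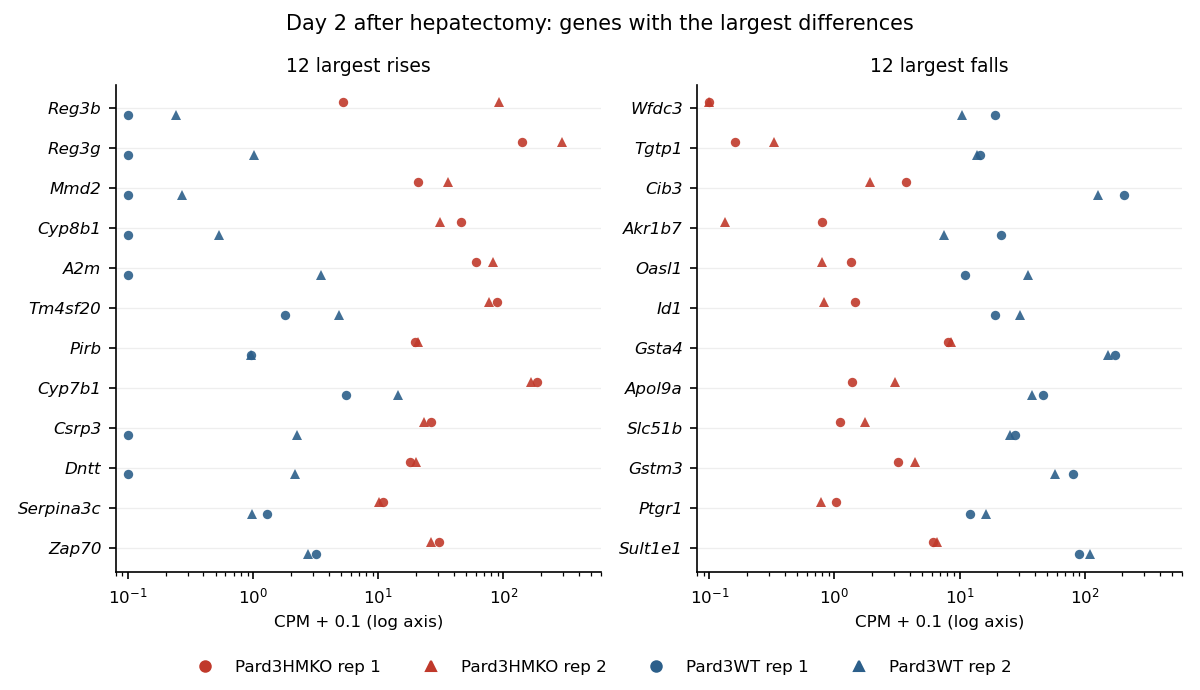
CPM plus 0.1 (log axis) of the 12 genes with the largest rises (left panel) and the 12 with the largest falls (right panel) in Pard3HMKO, with 1 point per library, Pard3HMKO in red above Pard3WT in blue. Genes whose groups overlap were left out by the rule that chose these, and Reg3b is the gene whose 2 Pard3HMKO libraries lie farthest apart, at 5.11 and 92.9 CPM.

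Among the 12 largest falls were detoxifying enzymes, interferon-induced genes and a bile salt exporter. Cib3, a calcium-binding protein of the CIB family, had 3.64 and 1.82 CPM in Pard3HMKO, against 208 and 129 CPM in Pard3WT (-5.95 ± 0.87, adjusted p = 0.00147). Gsta4, a glutathione transferase that clears lipid peroxidation products, had 8.03 and 8.40 CPM in Pard3HMKO, against 176 and 155 CPM in Pard3WT (-4.33 ± 0.57, adjusted p = 0.000438). Id1, an inhibitor of helix-loop-helix factors that BMP signals induce, had 1.37 and 0.731 CPM in Pard3HMKO, against 19.3 and 30.1 CPM in Pard3WT (-4.56 ± 0.64, adjusted p = 0.000203). The gap between the groups in each case was set by the rule that chose these genes, which took large differences without overlap.

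Tgtp1, an interferon-induced GTPase, had 0.0597 and 0.228 CPM in Pard3HMKO, against 14.49 and 13.64 CPM in Pard3WT. Ptgr1, a prostaglandin reductase, had 0.935 and 0.683 CPM in Pard3HMKO, against 11.9 and 16.02 CPM in Pard3WT. Cib3, Gsta4, Id1, Tgtp1 and Ptgr1 kept their calls in all 12 alternatives. In Pard3WT replicate 1, however, 1 of its 7 cells held 83.5% of the 85 Tgtp1 reads, and 1 held 80% of the 70 Ptgr1 reads. The largest share of a cell there was 70.8% for Wfdc3 and 54.8% for Cib3, against 26.2% for Gsta4 and 28.3% for Id1. Wfdc3, a whey acidic protein, had no read in either Pard3HMKO library, against 19.3 and 10.4 CPM in Pard3WT. With 3 reads over the Pard3HMKO group as the floor, it was at least 388-fold below the lower Pard3WT library. Against the Pard3WT mean the figure was 553-fold. Slc51b, a subunit of the basolateral bile salt exporter, had 1.01 and 1.66 CPM in Pard3HMKO, against 27.4 and 25.4 CPM in Pard3WT. The calls of Wfdc3, Slc51b, Oasl1, Apol9a, Gstm3 and Sult1e1, the oestrogen sulfotransferase, were each lost without either Pard3HMKO library. That of Akr1b7 was lost without Pard3HMKO replicate 2. Those of Wfdc3, Akr1b7 and Sult1e1 were also lost without Pard3WT replicate 1, and those of Oasl1 and Sult1e1 without Pard3WT replicate 2. Sult1e1 also lost its call with DESeq2 and Apol9a with thinned cells. Gstm3 and Akr1b7 lost theirs without cells that held markers of other types, and Akr1b7 with the day-2 libraries alone.

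To describe pathways, 40 lists of genes by function were counted. Each day-2 count of members below stands beside 1.99% of all genes higher and 1.21% lower. A list with 1 member called in a direction is not read as a result about that list. Cholesterol synthesis had the largest share of members higher and the interferon response the largest share lower.

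**Figure D2:**
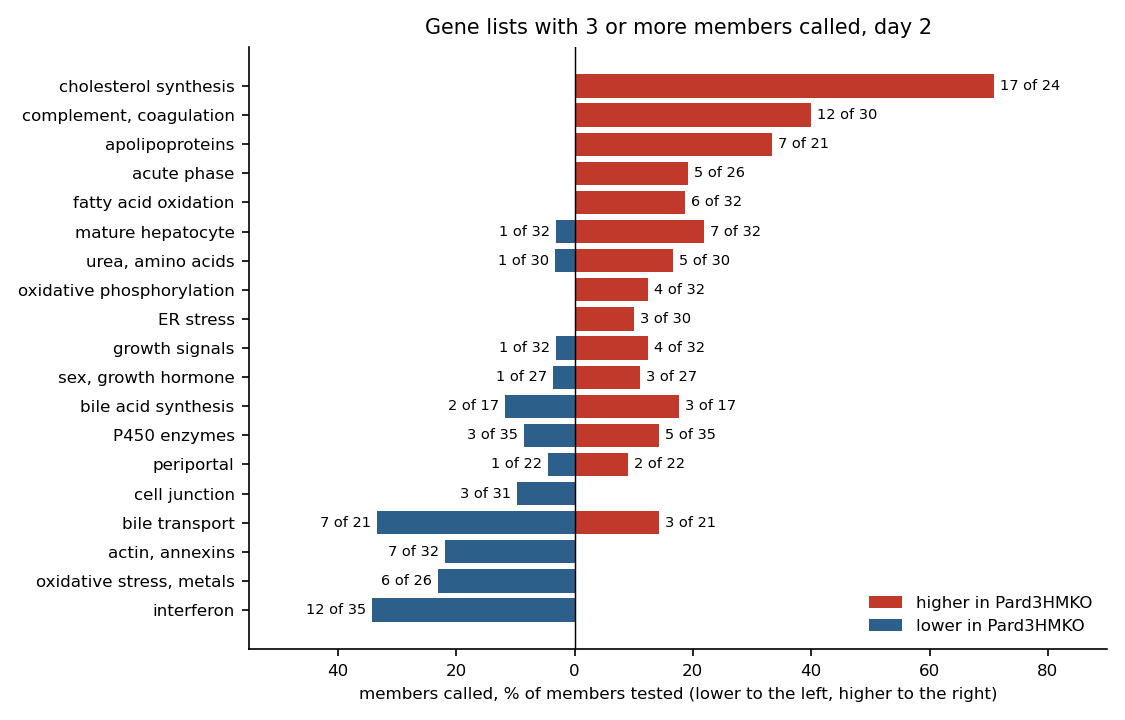
Share of tested members called in each list with 3 or more called, with members higher in Pard3HMKO to the right in red and members lower in Pard3HMKO to the left in blue; counts stand beside the bars. Cholesterol synthesis (17 of 24) reaches farthest to the right and interferon (12 of 35) farthest to the left.

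Of the genes of cholesterol synthesis and uptake, 17 of 24 tested members were higher and none was lower, against 1.99% and 1.21% of all genes, with a median log2 fold change of 1.25 against 0.08 over all genes. The list summed to 6398 and 6556 CPM in Pard3HMKO and to 2250 and 2857 CPM in Pard3WT; the day-0 libraries summed to 2008 and 1855 CPM in Pard3HMKO and 2368 and 2082 CPM in Pard3WT. Insig1, a sterol sensor of the endoplasmic reticulum, had 839 and 950 CPM in Pard3HMKO, against 134 and 260 CPM in Pard3WT (2.18 ± 0.30, adjusted p = 0.000170). Msmo1, a C4-demethylating oxidase, had 542 and 549 CPM in Pard3HMKO, against 137 and 215 CPM in Pard3WT (1.63 ± 0.22, adjusted p = 0.000170). The groups were apart for both, and by a larger margin for Insig1. Both were named for small p, and the groups were apart for 41.0% of all genes.

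Ebp, the sterol isomerase, had 261 and 306 CPM in Pard3HMKO, against 97.5 and 120 CPM in Pard3WT (1.38 ± 0.15, adjusted p = 1.22e-05). Stard4, a carrier of cholesterol between membranes, had 96.9 and 76.7 CPM in Pard3HMKO, against 31.0 and 32.6 CPM in Pard3WT (1.45 ± 0.19, adjusted p = 0.000129). Hmgcs1, the synthase of the pathway's entry, was also called, with 1175 and 1037 CPM in Pard3HMKO, against 451 and 524 CPM in Pard3WT. Srebf2, the gene of the factor known to drive this set, had 21.8 and 25.0 CPM in Pard3HMKO, against 19.4 and 16.4 CPM in Pard3WT, and was not called. Members called numbered 10 with library size only, 11 without Pard3HMKO replicate 1 and 8 without Pard3WT replicate 1, all higher. The list median was 0.80 with library size only.

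Promoter sequence was looked up for the called members in RefSeq (GRCm38.p6), as 250 bases before to 50 after a start site. Of 17 members, 11 had an entry. A CCAAT box (CCAAT, either strand) stood in 10 of the 11, against 37.4% of 32851 promoters, and the core of a sterol response element (CACCCCAC, either strand) in 2, Hmgcs1 and Acat2, against 2.87% of promoters. The Hmgcs1 window is shown since it holds the core within the last 150 bases before the start, at chr13:119690201-119690350 on the plus strand, with the core in capitals.
Hmgcs1: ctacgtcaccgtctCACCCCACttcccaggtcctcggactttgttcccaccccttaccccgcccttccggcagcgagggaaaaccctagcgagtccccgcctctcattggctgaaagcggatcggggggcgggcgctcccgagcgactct

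Of the interferon-induced genes, 12 of 35 tested members were lower, none was higher and 23 were not called, against 1.21% lower and 1.99% higher over all genes, with a median of -2.31. The list summed to 542 and 677 CPM in Pard3HMKO and to 1275 and 1685 CPM in Pard3WT. Gbp7, a guanylate-binding protein of cell-autonomous defence, had 2.47 and 5.32 CPM in Pard3HMKO, against 24.9 and 58.9 CPM in Pard3WT (-3.44 ± 0.42, adjusted p = 4.33e-05). Irgm1, a regulator among the immunity-related GTPases, had 13.7 and 14.0 CPM in Pard3HMKO, against 71.8 and 75.9 CPM in Pard3WT (-2.42 ± 0.32, adjusted p = 0.000115). Iigp1, an effector of the same family, had 86.7 and 101 CPM in Pard3HMKO, against 276 and 438 CPM in Pard3WT (-1.93 ± 0.25, adjusted p = 9.13e-05). The groups did not overlap for any of the 3, but they were named for small p, and 41.0% of all genes did not overlap.

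Irf9, which binds DNA in response to interferon, had 7.98 and 6.81 CPM in Pard3HMKO, against 29.5 and 20.9 CPM in Pard3WT. Ifi47, Igtp, Rtp4, Parp14, Usp18, Oasl1 and Oasl2 were also called. The widely used marker Isg15, at 5.73 and 4.65 CPM in Pard3HMKO and 33.1 and 51.7 CPM in Pard3WT, was not (adjusted p = 0.155). Gbp7 was read in 7 of 53 and 10 of 62 thinned Pard3HMKO cells, against 2 of 7 and 62 of 74 Pard3WT cells, and Irgm1 in 21 of 53 and 34 of 62 Pard3HMKO cells, against 6 of 7 and 66 of 74 Pard3WT cells. In the MHC class I list 2 of 22 tested members were called, both lower: H2-Q1 and Tap1, part of the transporter that supplies peptides. Neither was called once cells that held markers of other types were left out. There Tap1 had a log2 fold change of -1.77 (edgeR adjusted p = 0.0836). The count for the list was 1 without either Pard3HMKO library or with the day-2 libraries alone. Neutrophil markers and Spp1 had higher sums in the same Pard3WT libraries, as given above. Leaving out cells with markers of other types gave 15 interferon members lower and none higher. That step removed 4 of 7 and 18 of 76 Pard3WT cells, and 11 of 53 and 16 of 62 Pard3HMKO cells. A cell was marked where at least 50% of the genes of a marker list had any read, at its full depth. The same rule marked 80.8% and 86.6% of day-0 Pard3HMKO cells and 52.8% and 83.3% of day-0 Pard3WT cells. A mark thus shows reads of such genes and does not name the type of the cell. In Pard3WT, 3 and 11 cells were marked for macrophages, 0 and 4 for neutrophils and 0 and 2 for cholangiocytes. Whether such transcripts have a part in the interferon difference was not tested. Without the filter on low counts 24 members were lower and 1 higher, with the day-2 libraries alone 13 were lower and 1 higher, and the other alternatives gave 8 to 16 lower and none higher.

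**Figure D3:**
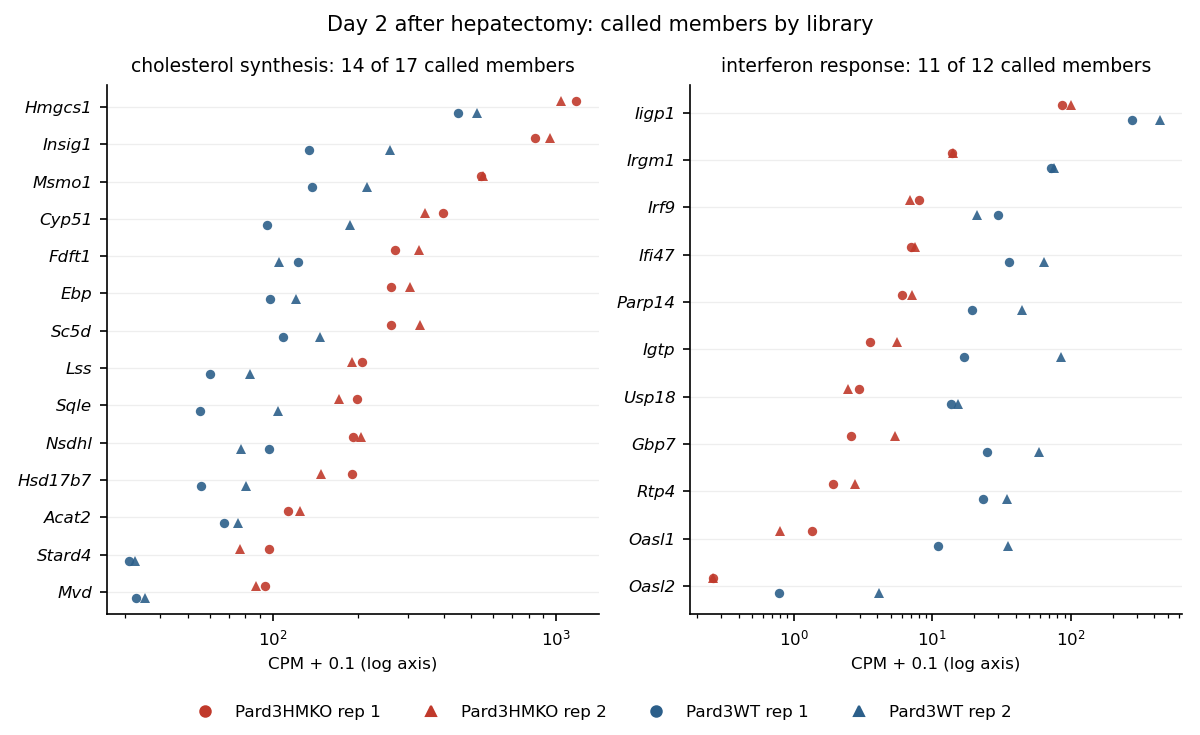
CPM plus 0.1 (log axis) of 14 of the 17 called members of cholesterol synthesis (left panel) and 11 of the 12 called members of the interferon response (right panel), 1 point per library, Pard3HMKO in red above Pard3WT in blue. In Pard3HMKO the 14 cholesterol genes drawn lie to the right of the Pard3WT points and the 11 interferon genes drawn to the left.

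Of the 12 interferon members, 7 had a RefSeq promoter entry (8 promoters). The core of an interferon-stimulated response element (2 GAAA blocks with 2 bases between them, either strand) stood in 3 genes, Gbp7, Irgm1 and Igtp, against 3.44% of all promoters, and a gamma-activated site (TTCNNNGAA, either strand) in Gbp7 and Igtp, against 8.3%. Of the genes called lower, these 3 are shown because they hold the response element core within the last 150 bases before the start site. The core is in capitals. The match is a description of letters and not of binding. The windows lie at chr3:142530186-142530335 (plus strand), chr11:48871421-48871570 (minus strand) and chr11:58199406-58199555 (plus strand).
Gbp7: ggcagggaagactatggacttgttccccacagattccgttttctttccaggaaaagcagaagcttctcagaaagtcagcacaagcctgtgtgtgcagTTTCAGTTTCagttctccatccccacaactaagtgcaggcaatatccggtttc
Irgm1: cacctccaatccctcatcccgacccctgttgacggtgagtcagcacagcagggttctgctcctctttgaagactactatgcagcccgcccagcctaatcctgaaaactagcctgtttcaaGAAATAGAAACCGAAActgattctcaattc
Igtp: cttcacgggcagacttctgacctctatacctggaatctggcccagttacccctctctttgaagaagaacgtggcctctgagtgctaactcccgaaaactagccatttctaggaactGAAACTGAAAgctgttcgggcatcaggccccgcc

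Bile handling moved in both directions. In the transporter list 3 of 21 tested members were higher and 7 lower, against 1.99% and 1.21% of all genes. Among the canalicular pumps Abcb11 and Abcb4 fell: Abcb11, the bile salt export pump, had 11.2 and 10.8 CPM in Pard3HMKO, against 74.2 and 87.5 CPM in Pard3WT (-2.89 ± 0.23, adjusted p = 2.34e-07), and Abcb4, the phospholipid floppase, had 86.7 and 78.1 CPM in Pard3HMKO, against 235 and 281 CPM in Pard3WT (-1.65 ± 0.23, adjusted p = 0.000203). Among the uptake carriers Slc10a1 and Slco2b1 rose: Slc10a1, which takes bile salts from blood, had 157 and 179 CPM in Pard3HMKO, against 41.3 and 59.8 CPM in Pard3WT (1.72 ± 0.20, adjusted p = 3.15e-05), and Slco2b1, an organic anion carrier, had 32.3 and 31.2 CPM in Pard3HMKO, against 2.90 and 6.25 CPM in Pard3WT (2.67 ± 0.29, adjusted p = 1.50e-05). These 4 genes kept their calls in all 12 alternatives.

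Slco1b2 rose as well, while Abcb1a, Abcg5, Slco1a4, Slc51b and the canalicular water channel Aqp8 fell. The number of lower transporters was 3 without either Pard3HMKO library and 4 with the 4 day-2 libraries fitted alone. Of 17 genes of bile acid synthesis, Cyp8b1, Cyp7b1 and Scp2 were higher, and Akr1d1 and Nr0b2, the repressor of bile acid synthesis that bile acids induce, were lower; neither of these 2 was called without Pard3HMKO replicate 1 or with the day-2 libraries alone. Nr0b2 had 5.21 and 13.8 CPM in Pard3HMKO, against 25.6 and 26.6 CPM in Pard3WT, and lost its call without Pard3HMKO replicate 1, without Pard3WT replicate 1, with thinned cells and with the day-2 libraries alone. Cyp7a1, the rate-limiting enzyme of the classic pathway, was below 0.2 CPM in all 4 libraries and was not called. The bile acid receptor Nr1h4 had 67.8 and 63.9 CPM in Pard3HMKO and 48.4 and 59.8 CPM in Pard3WT, and was not called (adjusted p = 0.644).

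Plasma proteins made up a large part of the reads. The 26 acute phase genes took 34.2% and 36.5% of reads in Pard3HMKO, against 24.7% and 26.3% in Pard3WT; on day 0 they took 3.16% and 4.71% in Pard3HMKO and 3.80% and 4.93% in Pard3WT. The day-2 groups were apart in this share. The most abundant of them, the serum amyloid genes Saa1 and Saa2, were not called: Saa1 had 100500 and 114600 CPM in Pard3HMKO, against 47090 and 53080 CPM in Pard3WT (1.10 ± 1.17, adjusted p = 0.784). Members that were called numbered 5, all higher, with a list median of 0.86. Serpina3n, a serine protease inhibitor of the acute phase, had 7901 and 8825 CPM in Pard3HMKO, against 1544 and 1676 CPM in Pard3WT (2.38 ± 0.24, adjusted p = 4.29e-06). Itih4, Apcs, Serpina3k and Serpina3m were the others. The Serpina3 genes are related copies, so reads may be split among them. The number of acute phase members higher was 2 with library size only and without Pard3HMKO replicate 2, 3 without Pard3WT replicate 1, 12 without cells that held markers of other types, 11 (with 1 lower) with the 4 libraries alone and 16 (with 2 lower) without the filter.

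**Figure D4:**
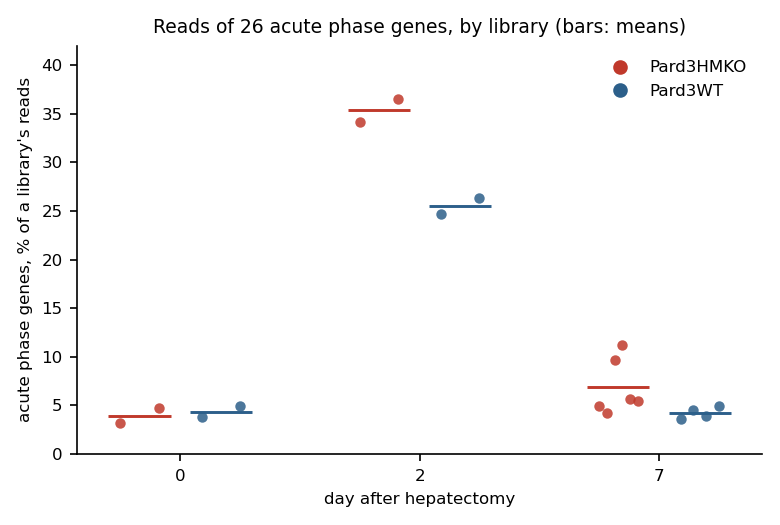
Share of each library's reads, in percent and with no scaling factor, that fell on 26 acute phase genes, on days 0, 2 and 7 after hepatectomy; each point is a library, Pard3HMKO in red left of Pard3WT in blue, and bars are means. The day-2 libraries stand highest, with Pard3HMKO at 34.2% and 36.5% and Pard3WT at 24.7% and 26.3%.

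Complement and coagulation factors were higher in 12 of 30 tested members and lower in none, with a median of 0.56. Over all genes 1.99% were higher and 1.21% lower. Mbl1, the mannose-binding lectin that starts the lectin pathway, had 602 and 701 CPM in Pard3HMKO, against 282 and 292 CPM in Pard3WT (1.18 ± 0.17, adjusted p = 0.000203). C9, the pore-forming component, had 236 and 271 CPM in Pard3HMKO, against 73.3 and 102 CPM in Pard3WT, and F10, coagulation factor X, had 436 and 490 CPM in Pard3HMKO, against 216 and 205 CPM in Pard3WT. All 3 kept their calls in every alternative, while the count for the list was 6 higher without Pard3WT replicate 1 or with the day-2 libraries alone, and 6 higher and 2 lower with library size only. Apolipoproteins were higher in 7 of 21 and lower in none (median 0.52). Apoa4, made by liver and gut for lipid transport, had 1658 and 1489 CPM in Pard3HMKO, against 170 and 396 CPM in Pard3WT (2.47 ± 0.38, adjusted p = 0.000873), and Apoa2, of high-density lipoprotein, 20350 and 21290 CPM in Pard3HMKO, against 11280 and 11550 CPM in Pard3WT. The apolipoprotein count was 2 higher and 1 lower with library size only, and 3 higher without Pard3HMKO replicate 2, without Pard3WT replicate 1 or with the day-2 libraries alone. Alb, the most abundant plasma protein, had 32990 and 34890 CPM in Pard3HMKO, against 36910 and 45770 CPM in Pard3WT, and was not called (-0.28 ± 0.16, adjusted p = 0.491).

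Among the rises were enzymes of amino acid breakdown, and 2 of the 22 genes in the list of glucose synthesis and glycogen, Fbp1 and Pcx. That list had no member called lower and a median of -0.25; with library size only it had 1 higher and 5 lower, with no filter 2 higher and 4 lower, and with either Pard3HMKO library or Pard3WT replicate 1 left out 1 higher. Hpd, the second enzyme of tyrosine breakdown, had 567 and 484 CPM in Pard3HMKO, against 84.6 and 56.0 CPM in Pard3WT (2.91 ± 0.20, adjusted p = 3.49e-08). Asl, argininosuccinate lyase of the urea cycle, had 903 and 834 CPM in Pard3HMKO, against 243 and 159 CPM in Pard3WT (2.12 ± 0.25, adjusted p = 2.46e-05). Fbp1, a key enzyme of gluconeogenesis, had 3917 and 4450 CPM in Pard3HMKO, against 1346 and 784 CPM in Pard3WT (1.97 ± 0.26, adjusted p = 0.000115). The groups were apart for each, as for 41.0% of all genes, and the calls held in every alternative. These genes were named for small p.

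The urea and amino acid list had 5 of 30 members higher (Asl, Tdo2, Hpd, Hgd and Fah) and 1 lower, Gpt. It had 2 higher with library size only, 3 with the day-2 libraries alone, 8 with no filter and 9 without cells that held markers of other types, and Gpt lost its call in the second and last of these and without Pard3HMKO replicate 2. The wider list of mature hepatocyte functions had 7 of 32 higher and 1 lower (median 0.35), but 3 higher and 4 lower with library size only, under which its median was -0.10, and 4 higher and none lower with the day-2 libraries alone. Fatty acid oxidation had 6 of 32 higher and none lower (median 0.31), among them the peroxisomal thiolase Acaa1a, with 267 and 232 CPM in Pard3HMKO, against 88.1 and 120 CPM in Pard3WT. With library size only, 2 members of that list were higher and 4 lower and the median was -0.14, and 2 were higher without Pard3HMKO replicate 2, 3 without Pard3WT replicate 1, and 3, with 1 lower, without Pard3WT replicate 2. Among cytochromes P450, 5 of 35 were higher and 3 lower; without either Pard3HMKO library 1 was lower, library size only gave 5 higher and 5 lower, no filter 12 and 7, and Pard3WT replicate 2 left out 9 and 3. Cyp2e1, a pericentral enzyme that oxidises ethanol, had 1474 and 1248 CPM in Pard3HMKO, against 251 and 327 CPM in Pard3WT, whereas Cyp3a11, a main drug-metabolising enzyme, had 61.6 and 47.1 CPM in Pard3HMKO, against 302 and 878 CPM in Pard3WT (-3.44 ± 0.42, adjusted p = 0.000151). The calls of both P450 genes were lost when cells holding markers of other types were left out, at log2 fold changes of 2.99 for Cyp2e1 (adjusted p = 0.279) and -3.13 for Cyp3a11 (adjusted p = 0.0557). Cyp3a25 and Cyp2b10 were the other P450 genes to fall, the last with 0 and 0 CPM in Pard3HMKO and 3.41 and 0.873 CPM in Pard3WT.

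Detoxifying and metal-handling genes fell in 6 of 26 cases and rose in none (median -0.86): Gsta4, Gstm1, Gstm3, Akr1b7, Slc40a1 and Slc39a4. Slc39a4, a zinc importer, had 14.1 and 13.6 CPM in Pard3HMKO, against 39.7 and 58.7 CPM in Pard3WT. Slc40a1, the iron exporter ferroportin, had 3.66 and 2.75 CPM in Pard3HMKO, against 8.18 and 13.52 CPM in Pard3WT. The count was 3 without Pard3HMKO replicate 1 and 1 without Pard3HMKO replicate 2, and 10 or 12 with DESeq2, library size only or no filter. Mt1, a metallothionein, had 36080 and 36730 CPM in Pard3HMKO, against 22440 and 22520 CPM in Pard3WT, and was not called.

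Both keratins of hepatocytes and 7 of 32 actin and annexin genes were lower. Krt8, a keratin of the hepatocyte's intermediate filaments, had 228 and 241 CPM in Pard3HMKO, against 1202 and 976 CPM in Pard3WT (-2.22 ± 0.28, adjusted p = 5.48e-05). Its partner Krt18 had 561 and 663 CPM in Pard3HMKO, against 1394 and 1125 CPM in Pard3WT (-1.04 ± 0.22, adjusted p = 0.00688), with its call lost without Pard3HMKO replicate 1 or Pard3WT replicate 1. These were the 2 members called of 18 in the list of biliary genes and keratins; of the biliary genes, Sox9 had 70.7 and 80.5 CPM in Pard3HMKO and 76.0 and 94.2 CPM in Pard3WT, and was not called.

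Of 32 actin and annexin genes, 7 were lower and none higher (median -0.38), against 1.21% and 1.99% of all genes. Anxa6, a membrane-binding annexin, had 51.1 and 57.0 CPM in Pard3HMKO, against 152 and 145 CPM in Pard3WT (-1.46 ± 0.22, adjusted p = 0.000471). Cnn3, an actin-binding calponin, had 43.4 and 56.5 CPM in Pard3HMKO, against 119 and 117 CPM in Pard3WT, and Myl12a, a myosin light chain, had 132 and 156 CPM in Pard3HMKO, against 396 and 312 CPM in Pard3WT. These 3 kept their calls throughout, while the count for the list was 3 without either Pard3HMKO library and 4 without Pard3WT replicate 1 or with the day-2 libraries alone.

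edgeR called none of 16 genes in the list of the PAR complex and its partners, 3 of them with an unadjusted p below 0.05, and DESeq2 likewise called 0, at a median of 0.21 (-0.23 with library size only, which called 1 of them lower). Pard6b, which binds PAR3 in that complex, had 5.13 and 2.63 CPM in Pard3HMKO and 0.511 and 2.80 CPM in Pard3WT, and Prkci, its kinase, had 6.52 and 4.93 CPM in Pard3HMKO and 1.88 and 7.94 CPM in Pard3WT; the groups overlapped for both. Of 31 junction genes, 3 were lower and none higher (median -0.24), against 1.21% and 1.99% of all genes. Cdh1, the adherens junction cadherin, had 14.1 and 8.22 CPM in Pard3HMKO, against 37.3 and 32.2 CPM in Pard3WT (-1.64 ± 0.37, adjusted p = 0.0128). Cldn1, a claudin of tight junctions, had 15.8 and 14.3 CPM in Pard3HMKO, against 26.9 and 41.9 CPM in Pard3WT, and Ctnna1, α-catenin, had 44.1 and 41.4 CPM in Pard3HMKO, against 75.5 and 61.5 CPM in Pard3WT. Cgn, the tight junction protein cingulin, averaged 15.9 CPM in Pard3HMKO and 31.9 CPM in Pard3WT and was not called (adjusted p = 0.0508). Without Pard3HMKO replicate 2 all 3 junction calls were lost. The junction count was 1 without Pard3HMKO replicate 1, 0 without Pard3HMKO replicate 2 and 1 without Pard3WT replicate 1, 0 with the day-2 libraries alone, 5 with DESeq2 and 11 with library size only.

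Of 30 genes of G2 and mitosis edgeR called none (median -1.41), with 4 at an unadjusted p below 0.05 and 1 called by DESeq2. Among 29 S phase genes Mcm10, a replication factor, was called higher and Tk1, thymidine kinase, lower. Those counts lie near the 1.99% higher and 1.21% lower over all genes. No S phase gene was lower with the day-2 libraries alone, with cells thinned, without cells that held markers of other types, with the replicate block, or without Pard3HMKO replicate 1, Pard3HMKO replicate 2 or Pard3WT replicate 2, so Tk1 lost its call in 7 of 12 alternatives, while Mcm10 lost it only with the day-2 libraries alone. Mcm10 had 9.98 and 11.7 CPM in Pard3HMKO, against 1.36 and 3.67 CPM in Pard3WT (1.89 ± 0.35, adjusted p = 0.00274). Its level was lowest on day 2 in both groups. It averaged 80.8 CPM in Pard3HMKO and 94.0 CPM in Pard3WT on day 0, and 72.8 and 89.8 CPM on day 7. Pcna, the sliding clamp, had 12.3 and 13.2 CPM in Pard3HMKO and 6.65 and 19.7 CPM in Pard3WT, and Ccnd1, the G1 cyclin, 3.56 and 3.64 CPM in Pard3HMKO, against 11.9 and 11.9 CPM in Pard3WT; neither was called. Cells with reads for at least 50% of the G2 and mitosis genes, after thinning, numbered 0 of 53 and 0 of 62 in Pard3HMKO, and 0 of 7 and 1 of 74 in Pard3WT. Taking 3 cells as the floor, the counts of 0 allow shares of up to 5.66% and 4.84% in Pard3HMKO and 42.9% in Pard3WT replicate 1; the upper ends of their exact 95% intervals are 6.72%, 5.78% and 41.0%. The share in Pard3WT replicate 2 was 1.35% (exact 95% interval 0.0342% to 7.3%). These intervals and limits cover counting error only. A difference in dividing cells was not detectable at these cell numbers, and 2 libraries against 2 cannot give an exact permutation p below 0.333. edgeR called no member of the lists of G1 regulators, YAP targets, Hippo components, ERK feedback, immediate early and oncofetal genes; 2, 4, 1, 5, 3 and 1 members had p below 0.05 before adjustment, while DESeq2 called 1, 1, 0, 1, 1 and 0. Of the growth signal list, Igf1, Insr, Igfbp2 and Igfbp4 were higher and Fgfr2 lower, of 32 tested. With the day-2 libraries alone none was called, and the counts were 1 higher and 2 lower with library size only, 2 higher and none lower without Pard3HMKO replicate 1, 4 higher and none lower without Pard3HMKO replicate 2, 1 higher and 1 lower without Pard3WT replicate 1, and 7 higher and none lower without Pard3WT replicate 2. Insr lost its call in 7 of 12 alternatives and Igf1 in 2, with the day-2 libraries alone and with library size only. Igf1 had 2032 and 2181 CPM in Pard3HMKO, against 1281 and 1090 CPM in Pard3WT.

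The day-2 difference was set against that before regrowth. On day 0 the same test called no gene (0.0%), with 1004 genes at p below 0.05 before adjustment, while DESeq2 called 182. The interaction, the day-2 difference minus the day-0 difference, was called for 365 genes (2.37%), 282 of them positive (1.83%) and 83 negative (0.539%); with library size only the split was 42 positive and 529 negative. Hpd had an interaction adjusted p of 1.45e-06 and Abcb11 of 8.72e-06, with day-0 log2 fold changes of -0.28 and 0.27. In the cholesterol list 7 of 24 members had a positive interaction and none a negative one, and in the interferon list 8 of 35 had a negative one and none a positive one. Apolipoproteins (7 of 21) and nuclear genes of oxidative phosphorylation (10 of 32) had only positive interactions among those called. The oxidative phosphorylation list had a median of -0.48 on day 0 and 0.36 on day 2, when 4 of 32 members were called higher. None was called higher with the day-2 libraries alone, no filter, the replicate block, library size only or any day-2 library left out. Its share of day-2 reads was 1.08% and 1.02% in Pard3HMKO, against 1.16% and 1.03% in Pard3WT.

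On day 7, 854 genes were called (5.55%), 431 of them higher (2.8% of all genes) and 423 lower (2.75%). The day-2 minus day-7 interaction was called for 726 (4.72%), 430 positive (2.79%) and 296 negative (1.92%). The day-2 and day-7 groups share no library, and 2 of the 6 Pard3HMKO day-7 libraries held only 12 and 9 cells; without each of those in turn the interaction was called for 805 and 909 genes. Of the 307 genes higher on day 2, 37 (12.1%) were also higher on day 7, which is 8.58% of the 431 higher there, and 48 (15.6%) were lower. Of the 186 genes lower on day 2, 45 (24.2%) were higher on day 7 and 17 (9.14%) were lower. Cholesterol synthesis was higher on both days: 17 of 24 members were called higher on day 7, and 13 of them were among the 17 called higher on day 2. Of the interferon-induced genes none was lower and 15 of 35 were higher on day 7, 6 of the 12 that were lower on day 2 among them, and 22 of 35 had a negative interaction. Irgm1, for instance, had a log2 fold change of -2.42 ± 0.32 on day 2 and 1.01 on day 7 (interaction adjusted p = 7.93e-06). Krt8 likewise was lower on day 2 and higher on day 7, at 1.20 (interaction adjusted p = 2.14e-06), and Cyp7b1 was higher on day 2 and lower on day 7, at -1.90 (interaction adjusted p = 2.86e-06). Markers of other cell types were also higher on day 7: 8 of 16 for macrophages, 4 of 15 for stellate cells and 1 of 15 for endothelial cells, with none of these called by edgeR on day 2. Macrophage markers summed to between 36.4 and 100.01 unscaled CPM in Pard3HMKO on day 7, against 14.0 to 19.8 in Pard3WT, and stellate markers to between 41.6 and 283, against 6.71 to 34.7. Their part in the day-7 values was not tested.

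**Figure D5:**
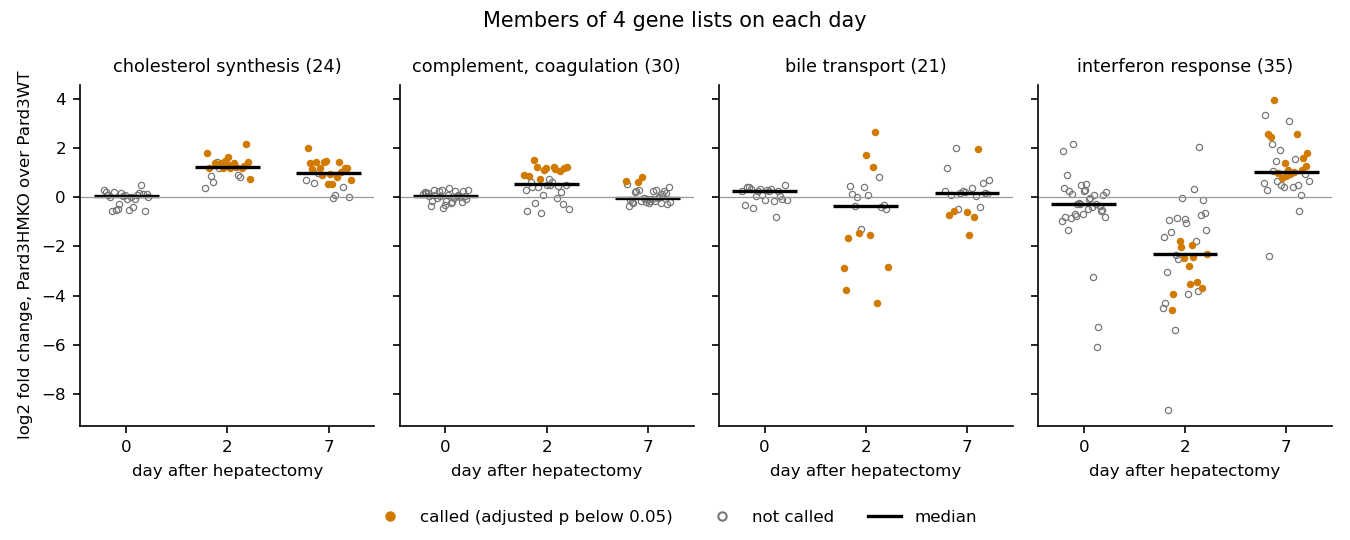
Log2 fold change of Pard3HMKO over Pard3WT for each tested member of 4 gene lists on days 0, 2 and 7 after hepatectomy; filled points passed the test on that day, open points did not, and bars are medians. Cholesterol synthesis is raised on days 2 and 7 (medians 1.25 and 0.97), while the interferon median is -2.31 on day 2 and 1.01 on day 7.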

How the data were processed

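Single-cell RNA-seq of 18 adult hepatocyte libraries (769 cells) was used. The deposited table holds read counts per gene and cell for 40824 genes; per the submitters' processing notes, the authors used FastQC 0.11.9, Trimmomatic 0.39 and HISAT2 2.1.0 with the GRCm38/mm10 build. The counting tool, its strand setting and the merging of copies of a molecule are not stated: not given in the sources used here. Spike-in entries (92) had 0 reads in adult cells, and 3495 columns of other samples were not used. No 2 adult cells had identical counts.

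Counts were summed per library, since cells are not replicates, and tested with edgeR's quasi-likelihood test (edgeR 4.0.16, limma 3.58.1, R 4.3.3; trended dispersion, TMM factors, filterByExpr, Benjamini-Hochberg adjustment over 15391 genes, threshold 0.05) in 1 fit of 6 groups (genotype by day). Libraries held 5735612 to 86188713 reads, and a deeper library gives less counting error. CPM and log2 fold changes (Pard3HMKO over Pard3WT) were computed here from the deposited counts. Alternatives were DESeq2 1.42.0, RLE size factors, no filter, a replicate block, the contrast's libraries alone, cells without markers of other types, cells thinned to 100000 reads (8 adult cells were shallower), each day-0 and day-2 library left out and, chosen after seeing the data, library size only and each day-7 library left out. No doublet caller was run. Figures were drawn with matplotlib 3.10.9, intervals came from scipy 1.17.1, and tables were made with pandas 2.3.3 in Python 3.11.15. The fit was tested on simulated data.

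Named genes were Pard3, Alb and Afp, the 12 genes that rose most and the 12 that fell most among those called, of at least 10 CPM in a group with no overlap, up to 4 members of each of 48 lists (40 by function, 8 of cell markers) with the smallest p, and 5 of each sign per interaction. The comparison and lists were chosen with earlier results of these data known, and other genes named were chosen after their values were seen. Afp, the fetal albumin counterpart, had 14.0 and 6.44 CPM in Pard3HMKO and 3.07 and 4.87 CPM in Pard3WT (adjusted p = 0.515). Reads of related genes (Reg3b and Reg3g, and the Serpina3, Saa, Cyp3a, Gsta and Gstm families) may be split between them where their sequences are alike. A few members of the lists are counted in them but their values are not reported here.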

Additional observations from a re-analysis of the deposited data

Results flagged for a closer look

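For these genes the difference between Pard3HMKO and Pard3WT on day 2 was itself different from that on another day (edgeR interaction test, adjusted p below 0.05). Values are the day-2 log2 fold change minus that of the other day; where a group has no or few reads they depend on the prior count and are not bounds.

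Against day 0, Cyp8b1 differed by 6.81, Tm4sf20 by 8.73, Pirb by 4.58, Cyp7b1 by 4.05 and Csrp3 by 4.18. In the other direction, Cib3 differed by -4.63, Id1 by -4.40, Gsta4 by -3.74, Gstm3 by -4.48 and Nid1, a basement membrane protein, by -5.03. Nid1 had 7.66 and 6.83 CPM in Pard3HMKO on day 2, against 68.4 and 67.2 CPM in Pard3WT.

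Against day 7, Reg3b differed by 10.2, Reg3g by 10.5, Cyp8b1 by 7.72, Tm4sf20 by 6.51 and Parvaos by 6.14. In the other direction, Wfdc3 differed by -17.2, Tgtp1 by -8.57, Cib3 by -9.73, Akr1b7 by -8.75 and the glutathione transferase Gsta1 by -9.67. Parvaos is an antisense gene and the strand of counting is not stated, so its reads and those of Parva cannot be told apart; it had 9.45 and 18.2 CPM in Pard3HMKO on day 2, against 0 and 1.01 CPM in Pard3WT, and was not called on that day (adjusted p = 0.0544). Gsta1 had 0.716 and 1.11 CPM in Pard3HMKO on day 2, against 35.8 and 80.1 CPM in Pard3WT (adjusted p = 0.0933).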

How the results depend on the processing

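Of 94 named genes called on day 2, 38 kept the call in all 12 alternatives and all 94 kept their direction. These genes were chosen from the same data for large differences without overlap or for small p. Their kept direction was thus largely set by that choice. Of all 493 calls, 3 changed sign without Pard3WT replicate 2. The 493 day-2 calls became 225 with the contrast's libraries alone, 808 with no filter (403 higher, 405 lower), 817 with DESeq2 (414 higher, 403 lower) and 862 with library size only, and 207 to 1367 with 1 library left out. The 365 day-2 minus day-0 calls became 565 with no filter, 672 with DESeq2 and 571 with library size only, and 116 to 788 with 1 library left out. The 726 day-2 minus day-7 calls became 1111 with no filter and 1118 with DESeq2, and 345 to 1397 with 1 library left out; library size only gave 136 positive and 836 negative. The cause was not tested. With the replicate number as a block, 355, 153 and 471 genes were called in the 3 comparisons, but same-numbered libraries did not deviate together (r = 0.00857 over 15391 genes, -0.0763 over the 5628 of at least 10 CPM), so they share only a number. Pard3HMKO day-7 replicates 3 and 4 had no cells left once cells with markers of other types were removed. The 7 cells of Pard3WT replicate 1 limit what the day-2 comparison can show.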
